A study of Mus musculus with 6 samples.

Results

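The genes described here encode components and receptors of the complement system. They are the 9 genes C1qa, C1qb, C1qc, C3, C3ar1, C5ar1, Cfb, Cfp and C4b, taken by symbol from the 24940 genes of the deposited table, where each symbol occurred once. Of the 9, 8 passed a filter of a mean of at least 0.5 RPKM over all libraries, as did 11595 of all genes, and C4b did not. RPKM is the number of reads per kilobase of transcript, scaled to the mapped reads of the library, so levels can be compared between genes of different length.

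The libraries came from bone marrow-derived macrophages (BMMs), obtained by culturing marrow of mice in the growth factor M-CSF, which can become osteoclasts, the cells that resorb bone. All cultures received M-CSF at 30 ng/mL, and there were 2 libraries of each of 3 conditions. The -R cells received M-CSF only for 3 days, the +R cells also received RANKL, the cytokine that drives osteoclast formation, at 100 ng/mL, and the R+LE cells received RANKL at 100 ng/mL together with LE at 10 μg/mL. LE is a methanolic leaf extract of the shrub Abeliophyllum distichum. Neither the labels nor the methods name a genetic change in any group. The sample labels name C57BL/6 mice aged 6 to 8 weeks as the source of the marrow, whereas the methods of the study name male ICR mice. No label says whether the 2 libraries of a condition came from separate animals or cultures, so the p-values measure only the spread between these libraries, which may be technical.

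Complement is a cascade of proteins that tag microbes and cell debris for removal. C1q, a hexamer assembled from chains A, B and C, starts the classical pathway when it binds antibody complexes or dying cells, and the alternative pathway amplifies the reaction through factor B (Cfb) and is stabilised by properdin (Cfp). Both pathways cleave C3, whose small fragment signals through the receptor C3ar1, and the corresponding fragment of C5 signals through C5ar1. Most plasma complement is made in the liver, but macrophages are the main source of C1q and also make properdin and C3.

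The libraries held 29390206 to 34846380 mapped reads, recovered from the whole-read steps of the RPKM values, and 3 reads on a transcript of 1 kb corresponded to 0.0861 to 0.102 RPKM. The Rn45s entry of ribosomal RNA held 6.83% and 4.97% of the reads on genes for -R. It held 10.9% and 11.1% for +R, and 11.2% and 13.5% for R+LE. What part this difference had in the RPKM values was not tested. All 8 macrophage markers examined, among them Csf1r and Adgre1, were at a mean of at least 1 RPKM, and their summed level ran from 6671 to 7259 RPKM for -R, from 2616 to 3357 for +R and from 3660 to 4105 for R+LE. The summed level of 10 osteoclast markers ran from 43.4 to 45.0 RPKM for -R, from 1951 to 2222 for +R and from 346.2 to 402.0 for R+LE. In these bulk libraries, fewer cells of a type and less RNA per cell cannot be told apart. The 8 neutrophil markers summed to 16.4 to 18.4 RPKM in -R, mostly S100a8 and S100a9. In the other 4 libraries they summed to 0.592 to 2.53 RPKM. Retnlg was at 1.07 and 0.81 RPKM in -R and at 0 in the other 4 libraries. Ngp, Camp, Ly6g and Mpo, at or below 0.334 RPKM, were also higher in both -R libraries than in any other. Elane was at or below 0.143 RPKM, with reads only in +R. Stromal cells can also make C3. The 8 stromal markers summed to 15.5 to 17.1 RPKM for -R, 11.0 to 15.2 for +R and 8.17 to 9.12 for R+LE. Most of this came from collagen genes. Pdgfrb was at 0.372 to 0.538 RPKM over all libraries. Cxcl12 was at 0.236 and 0.475 RPKM for -R and at most 0.101 in the others, and Pdgfra, Lepr and Dcn were at or below 0.159. The part that these cells had in the complement results was not tested. The marker lists of T cells, B cells, dendritic cells and erythroid cells each summed to at most 2.62 RPKM in every library, and those of hepatocytes to at most 0.331, with no read of Alb.

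RANKL changed most of these genes. Between +R and -R, 6 of the 8 tested genes fell (C1qa, C1qb, C1qc, Cfb, C3ar1 and C5ar1), C3 rose and Cfp did not pass the test, and all 7 changes were at least 2-fold. The test was limma on log2(RPKM + 0.5) with Benjamini-Hochberg adjustment over the 11595 genes, at an adjusted p below 0.05. Of all tested genes, 21.5% fell and 23.9% rose by the same rule, and 8.92% fell and 6.58% rose by at least 2-fold. The median log2 fold change was -1.89 over the 8 genes and 0.05 over all tested genes. For all 7 genes the libraries of the groups did not overlap, which was so for 75.2% of tested genes in this comparison. For a single gene, 2 libraries against 2 allow no exact two-sided permutation p under 0.333, so each call borrows its error from the other genes of the fit.

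LE split the same genes in different directions. Between R+LE and +R, the receptor genes C3ar1 and C5ar1 rose, by more than 2-fold each, C1qb and Cfb fell by less than 2-fold on the log2(RPKM + 0.5) scale, and C1qa, C1qc, C3 and Cfp did not pass the test. Of all tested genes, 5.19% rose and 6.86% fell, and 1.46% rose and 1.78% fell by at least 2-fold. The median log2 fold change was -0.25 over the 8 genes and -0.05 over all tested genes. Both of these comparisons use the same +R libraries, so their directions are not independent of each other. Between R+LE and -R, the same 6 genes that were lower in +R were lower in R+LE and C3 was higher, where 19.0% of all tested genes were lower and 15.3% higher. The libraries of these groups did not overlap for all 7, and for 65.5% of tested genes, and all of these differences but that of C5ar1 were at least 2-fold, as were 6.36% of tested genes in the lower and 3.92% in the higher direction.

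**Figure D1:**
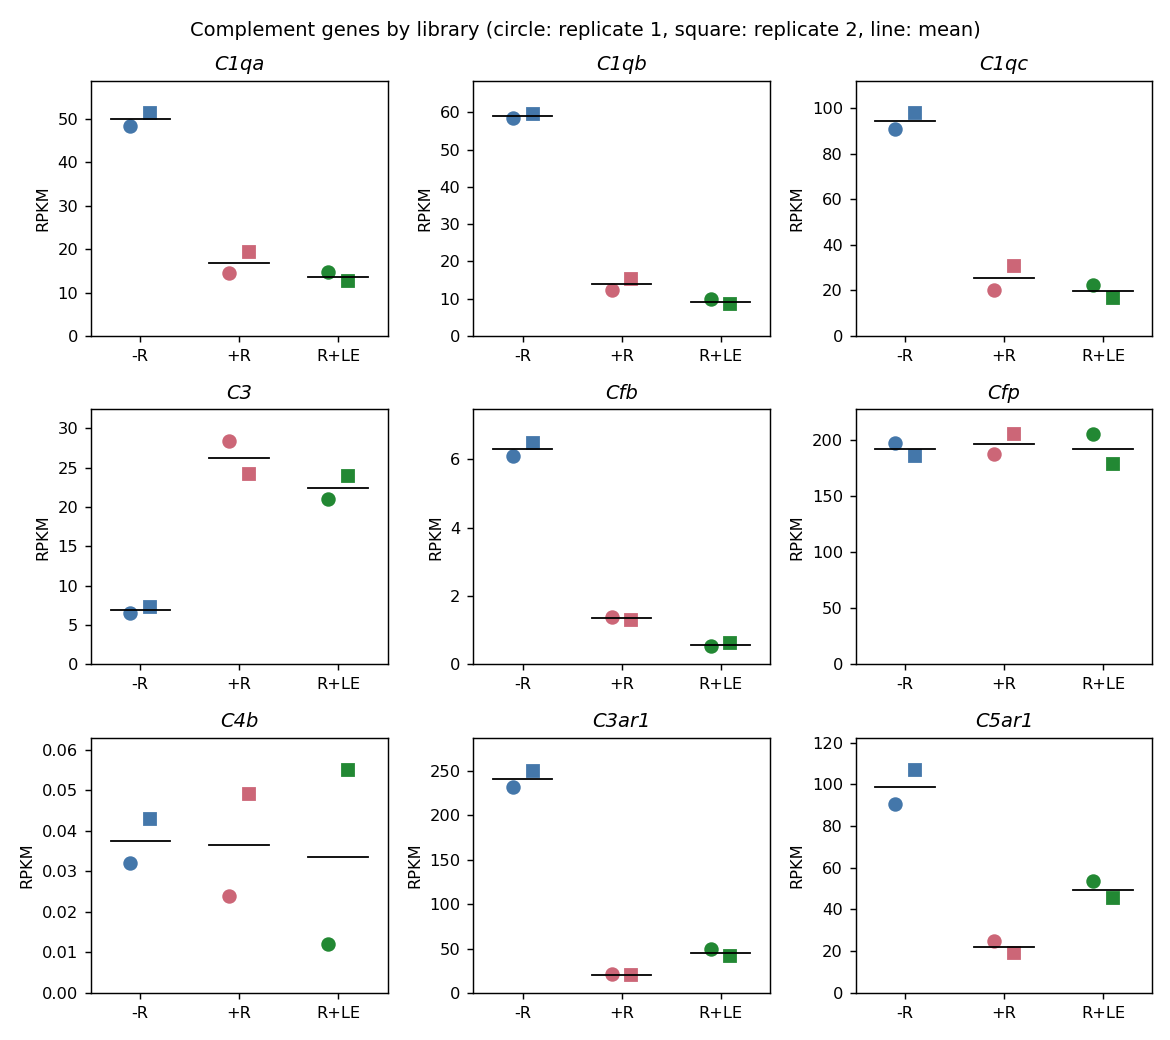
RPKM of each complement gene (vertical axis, linear and starting at 0) in the 6 libraries, by condition (horizontal axis). Circles are replicate 1, squares replicate 2 and lines the mean of the 2 libraries. C3 is the one gene whose -R libraries, at 6.49 and 7.32 RPKM, lie below all others, and C4b stays at or below 0.055 RPKM.

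**Figure D2:**
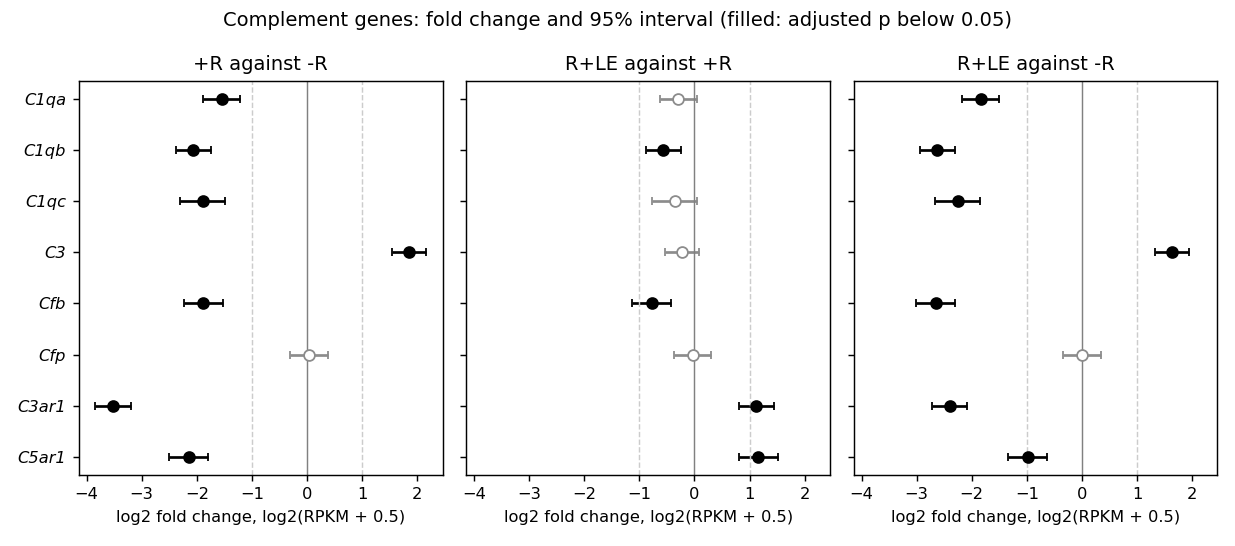
Log2 fold change on the log2(RPKM + 0.5) scale (horizontal axis) of the 8 tested complement genes in the 3 comparisons, with 95% confidence intervals from limma. Filled points passed an adjusted p of 0.05 and dashed lines mark a 2-fold change. The middle panel shows C3ar1 at 1.12 and C5ar1 at 1.16, against negative values for the 3 C1q genes and Cfb.

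The C1q genes encode the chains of the recognition molecule of the classical pathway and lie side by side on the minus strand of chromosome 4. In mm10, C1qb spans 136880145 to 136886177, C1qc 136889802 to 136892914 and C1qa 136895916 to 136898844, so that the starts of C1qb and C1qc are 6737 bp apart and those of C1qc and C1qa 5930 bp apart. Each has 3 blocks of exon sequence in the GENCODE M21 annotation, and none of them shares exon bases with another gene. The promoter windows of C1qb and C1qc are shown because the members of this cluster moved together, with those of C3 and C3ar1, which moved in opposite directions. They are the 250 bases before the RefSeq start (build GRCm38.p6, which has the coordinates of mm10), on the minus strand, read 5′ to 3′, and the RefSeq start of C1qb is 23 bp from that in the deposited table. Capitals mark matches to the motifs named in the next paragraph.
C1qb, chr4:136886201-136886450: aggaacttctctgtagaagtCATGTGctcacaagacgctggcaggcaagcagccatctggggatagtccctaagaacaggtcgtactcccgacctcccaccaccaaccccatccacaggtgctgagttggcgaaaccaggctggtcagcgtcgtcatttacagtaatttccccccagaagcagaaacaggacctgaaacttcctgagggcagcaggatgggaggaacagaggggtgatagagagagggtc
C1qc, chr4:136892915-136893164: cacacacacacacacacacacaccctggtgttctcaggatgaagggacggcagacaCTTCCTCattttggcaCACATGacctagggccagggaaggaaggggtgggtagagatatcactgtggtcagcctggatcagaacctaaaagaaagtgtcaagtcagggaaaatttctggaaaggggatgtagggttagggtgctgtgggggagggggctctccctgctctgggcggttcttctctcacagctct
C3, chr17:57228137-57228386: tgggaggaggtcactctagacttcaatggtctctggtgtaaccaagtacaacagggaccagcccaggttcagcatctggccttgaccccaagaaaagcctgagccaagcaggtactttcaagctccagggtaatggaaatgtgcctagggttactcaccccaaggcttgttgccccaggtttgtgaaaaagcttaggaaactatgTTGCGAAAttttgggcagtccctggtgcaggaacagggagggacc
C3ar1, chr6:122856158-122856407: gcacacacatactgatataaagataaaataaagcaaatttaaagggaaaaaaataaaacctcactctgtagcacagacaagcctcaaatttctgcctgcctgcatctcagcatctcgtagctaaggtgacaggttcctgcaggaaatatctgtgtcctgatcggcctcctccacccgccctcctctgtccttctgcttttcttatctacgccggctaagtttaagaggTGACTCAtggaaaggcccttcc

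In each window 9 short motifs were searched on both strands, and no matches overlapped in these 4 windows. The C1qc window held GAGGAAG, the core bound by the macrophage factor PU.1, on the opposite strand, and the C1qb and C1qc windows each held CATGTG, an E-box of the kind bound by MITF and its relatives. GAGGAAG occurred in 10.6% and CATGTG in 12.3% of all 32851 windows of the same length. The C3 window held TTNNGCAA, a C/EBP motif that 9.56% of windows held, starting 45 bases before the start on the opposite strand. The C3ar1 window held TGANTCA, the AP-1 motif that 6.75% of windows held, starting 22 bases before the start. The NF-κB motif (in 0.356% of windows), the interferon-stimulated response element (2.98%), the STAT site TTCNNNGAA (7.02%), the CRE TGACGTCA (1.55%) and the E-box CACGTG (6.02%) had no match in these 4 windows. A match shows only that these letters are present. The window of Cfp, a gene whose level did not change detectably, and that of C5ar1, whose RefSeq start differs by 202 bp from the start in the deposited table, held none of the 9 motifs.

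C1qc was the most abundant of the C1q transcripts per length in every library. It was at 91.1 and 97.8 RPKM for -R, 20.3 and 30.8 for +R, and 22.5 and 16.6 for R+LE, on 531 to 3574 reads. The -R libraries stood far above the other 4, and the ranges of +R and R+LE overlapped. Its log2 fold change was -1.90 with RANKL (SE 0.19, adjusted p = 9.97e-07, limma), -0.36 with LE against +R (95% interval -0.77 to 0.04, adjusted p = 0.281, limma) and -2.26 for R+LE against -R.

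C1qb was at 58.6 and 59.6 RPKM for -R, 12.5 and 15.3 for +R, and 9.89 and 8.48 for R+LE. The 3 conditions were in descending order without overlap. Of all tested genes, 75.2% had no overlap between +R and -R, and 49.0% had none between R+LE and +R. With RANKL the log2 fold change was -2.06 (SE 0.15, adjusted p = 2.26e-08, limma) and with LE it was -0.56 (SE 0.15, adjusted p = 0.0192, limma). The fall with LE did not pass the test without 4 of the 6 libraries, each left out in turn, with an adjusted p (limma) of 0.0546 without -R replicate 1, 0.055 without -R replicate 2, 0.234 without +R replicate 2 and 0.0808 without R+LE replicate 2. It also did not pass with no filter on low values (adjusted p = 0.0954) or in a fit of the compared groups only (0.052).

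C1qa was at 48.3 and 51.4 RPKM for -R, 14.5 and 19.3 for +R, and 14.6 and 12.6 for R+LE. As for C1qc, the -R libraries were the highest and the +R and R+LE libraries overlapped. For RANKL the log2 fold change was -1.55 (SE 0.16, adjusted p = 1.13e-06, limma) and for LE it was -0.29 (95% interval -0.63 to 0.05, adjusted p = 0.298, limma). For both C1qa and C1qc, the intervals for LE held 0 and also falls down to their lower bounds. Without +R replicate 1, in which all 3 C1q genes were lower than in +R replicate 2, the change of C1qc with LE was -0.65 and passed the test (adjusted p = 0.0344, limma).

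Summed over the chains, C1q averaged 203.4 ± 7.61 RPKM for -R, 56.3 ± 12.8 for +R and 42.4 ± 6.58 for R+LE (mean ± SD of 2 libraries). The shares of the chains in that sum were not constant. C1qa made up 24.4% and 24.6% for -R, 30.6% and 29.6% for +R, and 31.1% and 33.5% for R+LE, so that every library with RANKL lay above both without. C1qb made up 29.6% and 28.6% for -R, 26.4% and 23.3% for +R, and 21.0% and 22.5% for R+LE, while the share of C1qc stayed between 43.0% and 47.9% in the 6 libraries. These shares were not tested, since 2 libraries against 2 cannot give an exact p under 0.333.

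Of the other tested genes that start within 500 kb of the C1qc start, Kdm1a had a log2 fold change with RANKL of 0.25 (adjusted p = 0.22, limma), Zbtb40 of 0.08 (0.725), Cdc42 of -0.45 (0.0647) and Luzp1 of -0.50 (0.0357). The first 3 did not pass the test and Luzp1 fell by less than any C1q gene in point estimate. None of these 4 passed the test with LE in limma.

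**Figure D3:**
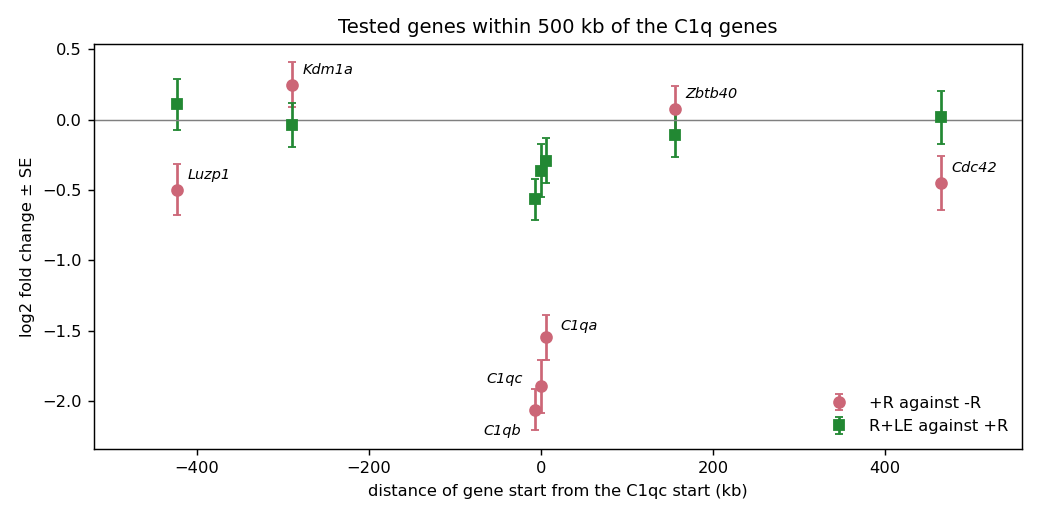
Log2 fold change ± SE from limma (vertical axis) of the 7 tested genes that start within 500 kb of C1qc, against the distance of their start in kb (horizontal axis), for +R against -R (circles) and R+LE against +R (squares). The C1q genes lie between -2.06 and -1.55 with RANKL, and the 4 other genes between -0.50 and 0.25.

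C3, on the minus strand of chromosome 17 from 57203967 to 57228136, encodes the protein on which all pathways converge. It was at 6.49 and 7.32 RPKM for -R, 28.3 and 24.2 for +R, and 21.0 and 23.9 for R+LE, on 972 to 4432 reads. Both -R libraries were far below the other 4, and the +R libraries lay just above those of R+LE. Its rise with RANKL had a log2 fold change of 1.85 (SE 0.14, adjusted p = 6e-08, limma), and that for R+LE against -R was 1.63 (adjusted p = 4.34e-07, limma). The difference between R+LE and +R was -0.22 (95% interval -0.53 to 0.09, adjusted p = 0.418, limma), so the libraries did not overlap but the difference did not pass the test. Among the 11595 tested genes, the rise of C3 with RANKL was number 225 from the top.

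Cfb, on the minus strand of chromosome 17 from 34856374 to 34862514, encodes factor B, the protease of the alternative pathway. It was at 6.10 and 6.48 RPKM for -R, 1.40 and 1.29 for +R, and 0.547 and 0.615 for R+LE. The conditions were in descending order without overlap, and the R+LE libraries held 47 and 51 reads. The R+LE and +R libraries did not overlap for 49.0% of tested genes. RANKL gave a log2 fold change of -1.88 (SE 0.17, adjusted p = 2.38e-07, limma) and LE one of -0.77 (SE 0.17, adjusted p = 0.00575, limma). The pseudocount understates changes at such low levels, since the ratio of the mean RPKM of +R to that of R+LE was 2.32, and with a pseudocount of 0.1 the log2 fold change with LE was -1.09. With no filter on low values, the fall with LE did not pass the test (adjusted p = 0.0578, limma). Of 2825 exon bases of Cfb, 2246 are also annotated to Gm20547, a gene on the same strand, so reads of both were not separated.

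C2, which encodes the classical pathway homologue of factor B, lies 87 bp from Cfb and was chosen after its values were seen. It was at 0.493 and 0.602 RPKM for -R, 0.025 and 0.074 for +R, and 0.072 and 0.113 for R+LE, below the filter. The 2 -R libraries, with 38 and 55 reads, lay above the other 4, which had 2 to 9 reads.

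Cfp, on the minus strand of chromosome X from 20925454 to 20931555, encodes properdin and was the most even of the genes. It was at 197.7 and 186.5 RPKM for -R, 187.6 and 205.5 for +R, and 205.5 and 179.2 for R+LE, on 8866 to 10559 reads. The 3 conditions overlapped. The log2 fold change was 0.03 with RANKL (95% interval -0.31 to 0.37, adjusted p = 0.887, limma) and -0.03 with LE (95% interval -0.37 to 0.31, adjusted p = 0.944, limma), and the sign of both depended on the scaling and on single libraries. In -R, C3ar1 was at a higher level than Cfp, and in +R and R+LE Cfp was the highest of the 9 genes.

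C4b, on the minus strand of chromosome 17 from 34728381 to 34743897, encodes C4, the next component after C1 in the classical pathway. It had 5 and 8 reads for -R, 4 and 8 for +R, and 2 and 9 for R+LE, or 0.012 to 0.055 RPKM, and was not tested. No difference was detectable at this depth. Its paralog C4a, a near-identical gene to which reads of C4b may have been assigned, was at 0.073 to 0.243 RPKM.

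C3ar1, on the minus strand of chromosome 6 from 122847140 to 122856157, encodes the receptor for the C3 fragment. It was at 231.5 and 249.7 RPKM for -R, 21.2 and 19.9 for +R, and 49.8 and 41.2 for R+LE, on 2619 to 37374 reads. The conditions did not overlap, with R+LE between the others. No overlap was seen for 75.2% of tested genes between +R and -R and for 49.0% between R+LE and +R. The log2 fold change was -3.52 with RANKL (SE 0.15, adjusted p = 7.94e-11, limma), which was number 36 from the lowest of the 11595 tested genes. With LE it was 1.12 against +R (SE 0.15, adjusted p = 0.00013, limma), and for R+LE against -R it was -2.40 (adjusted p = 9.73e-09, limma). The mean level in +R was 8.52% of that in -R, and the mean level in R+LE was 18.9% of it.

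C5ar1, on the minus strand of chromosome 7 from 16246743 to 16259540, encodes the receptor for the C5 fragment, a strong attractant of myeloid cells. It was at 90.5 and 106.7 RPKM for -R, 25.0 and 19.1 for +R, and 53.8 and 45.3 for R+LE. Again the conditions did not overlap and R+LE lay between the others. The log2 fold change was -2.14 with RANKL (SE 0.17, adjusted p = 5.34e-08, limma), 1.16 with LE against +R (SE 0.17, adjusted p = 0.000253, limma) and -0.99 for R+LE against -R (adjusted p = 0.000259, limma). The mean level in +R was 22.4% of that in -R, and the mean level in R+LE was 50.2% of it. Neutrophils also express C5ar1 and Cfp. The summed neutrophil markers were at 16.4 to 18.4 RPKM for -R, 0.716 to 0.816 for +R and 0.592 to 2.53 for R+LE. What part neutrophils had in the levels of these genes was not tested. Of the macrophage markers, Lyz2, Adgre1, Cd14 and Mertk also had both R+LE libraries between those of +R and -R, as did Fcgr1, whose highest +R and lowest R+LE libraries were both at 1.77 RPKM after rounding. The others did not, as Cd68 and Mrc1 were lower in both R+LE libraries than in either +R library, and the R+LE and +R ranges of Csf1r overlapped. What part the share of macrophages had in the receptor levels was not tested.

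The rise of both receptor genes with LE passed the test in every alternative, but its 2-fold size did not hold in all of them. Without R+LE replicate 1 the log2 fold change of C3ar1 was 0.99, and without +R replicate 2 that of C5ar1 was 0.97. For R+LE against +R, the libraries of the groups did not overlap for 49.0% of tested genes. The ratio of C3ar1 to C5ar1, both in RPKM, was 2.56 and 2.34 for -R, 0.847 and 1.04 for +R, and 0.925 and 0.909 for R+LE. The ratio was thus higher in both -R libraries than in the other 4, and the ranges of +R and R+LE overlapped. C5ar2, the second receptor for the C5 fragment, whose start is 17209 bp from that of C5ar1, was chosen after its values were seen. It was at 0.485 to 1.04 RPKM, and it did not pass the test with RANKL (-0.32, adjusted p = 0.247, limma) or with LE (0.49, adjusted p = 0.174, limma), but its rise with LE passed under voom on the recovered reads (0.86, adjusted p = 0.0485).

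The likeness of profiles was measured as the root mean square difference of log2(RPKM + 0.5), centred for each gene, over the 6 libraries, against 11594 other genes. Among all genes, Cfb was the nearest to C1qb and C1qb the nearest to Cfb, with a difference of 0.17. C1qb was number 3 from C1qc and C1qc number 6 from C1qb, at 0.19. The genes nearest to C1qa were H2-M3 (0.09), Hpgd (0.12) and Arhgap25 (0.15), with C1qc at number 34. Those nearest to C1qc were Isg15 (0.12) and Pkib (0.16), and after Cfb those nearest to C1qb were Fabp4 and Ccr2 (0.17 each). After C1qb, those nearest to Cfb were Ccr2 (0.18) and Tmem86a (0.19).

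The receptors had other neighbours in this measure. Nearest to C3ar1 were Cd34 (0.12), Lilr4b (0.13) and Fcgr3 (0.13), an Fc receptor gene that went from 121.7 RPKM in -R to 10.3 in +R and 22.1 in R+LE. Nearest to C5ar1 were Lipa (0.09), AV051173 (0.10) and Smpdl3a (0.10), and Lipa, which encodes lysosomal acid lipase, went from 460.5 to 112.5 and 264.9 RPKM in the same order. C5ar1 was number 248 from C3ar1, while C3ar1 was number 1632 from C5ar1, behind C1qa at number 1442. Nearest to C3 were Acsl1 (0.08), Pabpc4 (0.10) and Tnip1 (0.13), and nearest to Cfp were Slc52a2, 1500015A07Rik and Ttc30b (0.03 each). These likenesses are over 6 libraries that share 3 conditions and describe the profiles only.

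Other genes of the complement system were taken from a list of 51 genes in the table, of which 16 passed the filter. With RANKL, 4 of the 16 rose, 5 fell and 7 did not pass the test, with a median log2 fold change of 0.06 against 0.05 over all tested genes, of which 23.9% rose and 21.5% fell. With LE against +R, 3 rose, 2 fell and 11 did not pass, with a median of 0.03 against -0.05 over all tested genes, of which 5.19% rose and 6.86% fell. In R+LE against -R, 3 were higher and 2 lower, against 15.3% higher and 19.0% lower of all tested genes. Of the 35 genes below the filter, 17 had 3 reads or fewer in every library and 9 had none. All but 1 of the 7 terminal pathway genes in the list were below the filter.

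Among the initiators and pattern recognition molecules of this list, Fcna, which encodes a ficolin of the lectin pathway, was at 2.76 and 2.20 RPKM for -R, 10.9 and 8.24 for +R, and 12.0 and 8.25 for R+LE. Both -R libraries were below the other 4. Its log2 fold change was 1.75 with RANKL (SE 0.19, adjusted p = 1.83e-06, limma) and 0.07 with LE (adjusted p = 0.887, limma). C1ra, which encodes the protease that C1q activates, fell with RANKL like the C1q genes, by a log2 fold change of -1.05 (SE 0.21, adjusted p = 0.000788, limma), from 1.52 and 1.58 RPKM in -R to 0.438 and 0.545 in +R. It was 0.484 and 0.37 RPKM in R+LE. Colec12, a collectin and scavenger receptor gene, fell with RANKL by 0.43 on the log2 scale and rose with LE by 0.77 (adjusted p = 0.0193 and 0.00169, limma).

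Among the receptors of the list, Cd93, once described as a C1q receptor, was at 91.7 and 104.5 RPKM for -R, 17.0 and 18.7 for +R, and 40.2 and 36.3 for R+LE. The conditions did not overlap, which between R+LE and +R was so for 49.0% of tested genes. Its log2 fold change was -2.43 with RANKL (SE 0.14, adjusted p = 2.79e-09, limma) and 1.08 with LE (SE 0.14, adjusted p = 0.000132, limma), so that its levels had the same order of conditions as those of C3ar1 and C5ar1. Lrp1, a clearance receptor that binds many ligands, had log2 fold changes of -1.21 and 0.82 (adjusted p = 9.58e-05 and 0.00935, limma). C1qbp, a mitochondrial protein gene first named for binding to C1q, rose with RANKL by 0.94 (adjusted p = 6.9e-05, limma) and had a log2 fold change of -0.40 with LE (adjusted p = 0.0871, limma). Calr, which encodes calreticulin, was at 430.8 to 605.6 RPKM and did not pass the test in either comparison.

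The genes of complement receptors 3 and 4, integrins that take up C3-coated particles, went different ways. Itgax, the α chain of receptor 4, rose with RANKL by 1.02 (adjusted p = 0.000881, limma) and had a log2 fold change of -0.69 with LE (adjusted p = 0.0422, limma). Itgb2, the β chain that both share, fell with RANKL by 0.49 (adjusted p = 0.0209, limma). Itgam, the α chain of receptor 3, was at 69.6 to 105.7 RPKM and had a log2 fold change of 0.34 with RANKL (adjusted p = 0.0847, limma), 0.22 with LE against +R (0.469) and 0.56 for R+LE against -R (0.0114).

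Among the regulators that protect host cells, Cd59a, an inhibitor of the membrane attack complex, rose with RANKL by 0.49 (adjusted p = 0.00838, limma) and had a log2 fold change of -0.44 with LE (adjusted p = 0.0473, limma). Cr1l, which encodes the mouse regulator Crry, was at 24.4 to 34.6 RPKM, and its log2 fold change was 0.03 with RANKL (95% interval -0.32 to 0.38) and -0.04 with LE (95% interval -0.39 to 0.31).

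Several of these smaller changes rested on single libraries. Without +R replicate 1, the adjusted p (limma) for the change with LE was 0.499 for Itgax, 0.0582 for Lrp1 and 0.114 for Cd59a, and without R+LE replicate 2 it was 0.209 for Itgax and 0.104 for Cd59a. The change of Cd59a with LE was lost whichever of the 6 libraries was left out, with the highest adjusted p, 0.305, without +R replicate 2. With RANKL, the adjusted p without +R replicate 2 was 0.162 for Colec12, 0.221 for Itgb2 and 0.0846 for Cd59a. Without -R replicate 2 it was 0.152 for Colec12 and 0.19 for Itgb2, and without -R replicate 1 it was 0.0806 for Itgb2 and 0.0877 for Cd59a. The call of Itgam for R+LE against -R was lost without either -R library (adjusted p = 0.114 and 0.0879). The rise of Itgam with RANKL passed under median centring, quantile normalization and voom (adjusted p = 0.0395, 0.0399 and 0.04), and the change of Lrp1 with LE did not pass with no filter (0.135). The change of Itgax with LE did not pass in limma with a pseudocount of 0.1 (adjusted p = 0.0507), no variance trend (0.0694) or no filter (0.296). It also did not pass with median centring (0.0601), quantile normalization (0.0787) or the compared groups only (0.0927). The call of Itgax was lost as well with either -R library left out, where its log2 fold change stayed at -0.69. The change of C1qbp with LE passed under voom (0.0308) and without R+LE replicate 1 (0.0432). The changes of Fcna and Cd93 with RANKL and of Cd93 and Colec12 with LE passed in every alternative, and that of C1ra with RANKL in every alternative that tested it, as its mean was below the minimum of 1 RPKM.

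**Figure D4:**
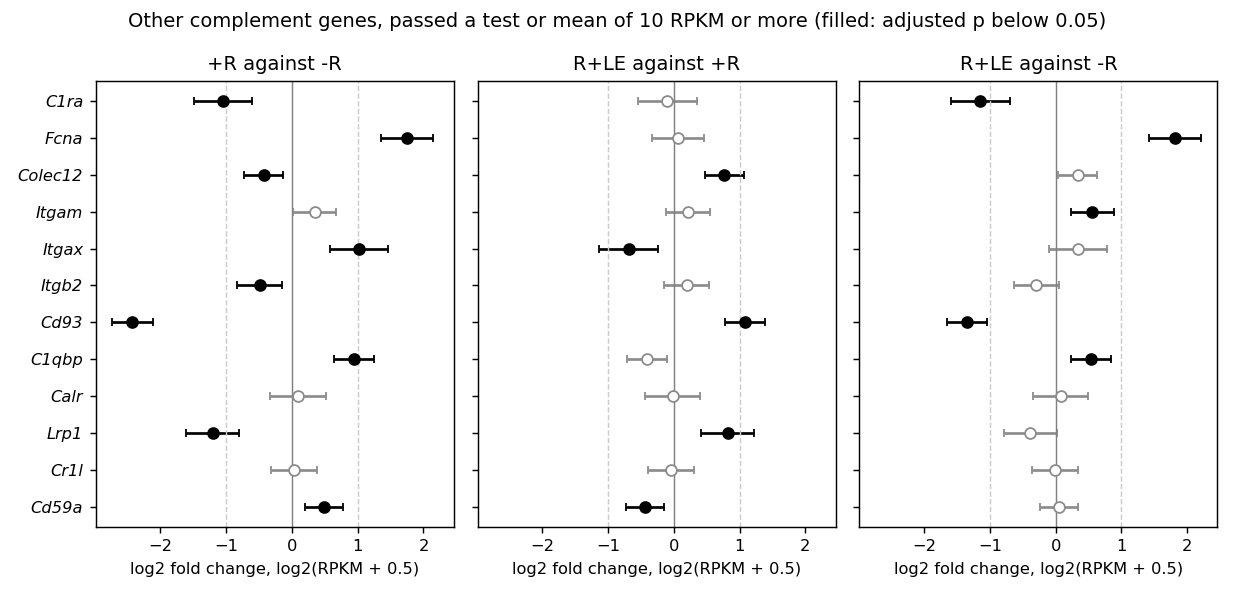
Log2 fold change on the log2(RPKM + 0.5) scale (horizontal axis) with 95% confidence intervals from limma for the 12 other complement genes that passed the test in a comparison or had a mean of at least 10 RPKM, in the 3 comparisons. Filled points passed an adjusted p of 0.05 and dashed lines mark a 2-fold change. With RANKL the values reach from -2.43 for Cd93 to 1.75 for Fcna.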

How the data were processed

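Total RNA of BMM cultures was sequenced in 6 libraries. The authors aligned reads to mm10, with TopHat according to the methods of the study and HISAT2 according to the submitters' processing notes, which also list DESeq2, and counted reads on exons of either strand with HOMER, keeping 1 transcript per gene. They deposited RPKM, under titles that say FPKM. Tool versions are not given in the sources used here.

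Genes averaging 0.5 RPKM or more over the libraries (11595) were fitted as log2(RPKM + 0.5) with the 3 groups together in limma 3.58.1 (R 4.3.3), with a variance trend and Benjamini-Hochberg adjustment. Tables and figures used Python 3.11.15, numpy 2.4.6, pandas 2.3.3 and matplotlib 3.10.9. Reads were recovered from RPKM and length, and 99.99% of the low values checked were whole within rounding and 0.02 reads. The level given for 3 reads covers counting error only, and the intervals of fold changes come from limma. Between the replicates of a group the mean chi-square per gene was 12.5 to 28.0, above counting noise, and each replicate was kept. Only the limma fit was tested on simulated data, in which every gene had the same dispersion.

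The genes named are the 9 complement genes, genes of the list of other complement genes that passed a test or had a mean of at least 10 RPKM, the 3 nearest profiles and chromosomal neighbours. Members, lists and rules were chosen with earlier results of these data known. Alternatives were 2 pseudocounts, 2 filters, no variance trend, 2 scalings, the compared groups only, a block for the replicate number, voom on the recovered reads and each library left out.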

Additional observations from a re-analysis of the deposited data

How the results depend on the processing

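For the 8 tested complement genes in the 3 comparisons, 363 of the 384 values under the alternatives kept their direction and their side of the threshold, 7 lost the call, 1 gained it and 13 changed sign, all of the last for Cfp. The 7 lost calls were those of C1qb and Cfb with LE, given with their values above. Of the +R against -R and R+LE against -R calls of these genes, none was lost under any alternative. The counts of complement genes that fell with LE were 0 with no filter, where 2 had an unadjusted p below 0.05 and limma's voom called 2, and 1 in the fit of the compared groups only. At least 2-fold falls with LE numbered 1, Cfb, with a pseudocount of 0.1 and with voom. The range over libraries left out was 1 to 3 for genes that fell with LE and 1 to 2 for those that rose at least 2-fold. When a library is left out, the lone library of its group is assumed to vary like the others.

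Of the other complement genes, 5 rose with LE under voom. Those that fell with LE numbered 0 with a pseudocount of 0.1, no filter, no variance trend, quantile normalization or the compared groups only, and 1 with median centring (unadjusted p below 0.05 in 3 to 5 genes), and 0 to 2 with a library left out. Those that fell with RANKL numbered 3 to 5 with a library left out. For R+LE against -R, 5 were higher and 4 lower with no filter, 1 was lower at a minimum mean of 1 RPKM, and 1 to 4 were higher with a library left out. Of all tested genes, 241 rose and 340 fell with LE with no filter and 906 rose under voom. With a library left out, 1761 to 3093 rose with RANKL, and 950 to 2116 were higher and 1426 to 2257 lower in R+LE than in -R. The causes were not tested.

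Cfp had log2 fold changes with RANKL of -0.0061 under voom, and -0.0099 without -R replicate 2 and -0.034 without +R replicate 2. With LE they were 0.018 with median centring, 0.057 with quantile normalization and 0.015 under voom, and from -0.13 to 0.066 with a library left out, above 0 without +R replicate 2 (0.033) and R+LE replicate 2. For R+LE against -R they were 0.054, 0.18 and 0.0092 under the same 3 alternatives, and from -0.099 to 0.098 with a library left out, above 0 without -R replicate 1 (0.041) and R+LE replicate 2.

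The groups share replicate numbers, but no source says what a number marks, and the half-differences between replicates correlated over genes at -0.05 for -R and +R, 0.25 for +R and R+LE and 0.11 for -R and R+LE, so the numbers were not taken as pairs. With the replicate number as a block, 1 complement gene rose and 6 fell with RANKL, and 2 rose and 2 fell with LE, as without it, and no call of these genes changed in the 3 comparisons. Among the other complement genes, Lrp1 was then also lower in R+LE than in -R (adjusted p = 0.0433, limma). Of all tested genes, 3059 rose and 2687 fell with RANKL and 756 rose and 1036 fell with LE.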

Other observations

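Below the filter of 0.5 RPKM, 4 genes of the list of other complement genes passed the test in limma for both RANKL comparisons against -R when no filter was applied, which tested more genes. These 4 were chosen after their values were seen. With no filter, 42 genes of the list were tested, of which 6 rose and 7 fell in +R against -R. Of all genes in that fit, 2408 rose and 2517 fell. The number of genes in that fit is not given here. The counts of the list were therefore not set against a share of all genes, and no excess is read from them. C2 and C1rb, of the classical pathway, were lower with RANKL. C1rb had 7 and 11 reads for -R, 2 and 0 for +R, and 2 and 0 for R+LE. Cd55, which encodes the decay accelerating factor that protects cells from complement, had 0 and 8 reads for -R, 42 and 56 for +R, and 29 and 29 for R+LE. Susd4, which encodes another complement regulator, had no read in either -R library, 18 and 27 reads in +R, and 22 and 14 in R+LE. The adjusted p for +R against -R was 0.0015 for C2, 0.0169 for C1rb, 0.00314 for Cd55 and 0.00835 for Susd4 in limma with no filter, and none of the 4 passed for R+LE against +R.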
